A study of Mus musculus with 6 samples.

Results

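Expression of 50 genes of mitosis was examined in the corpus of the stomach, the region whose glands secrete acid and pepsinogen, of 6 mice. The genes were listed by name for their roles in mitosis, and all 50 of 50 were found among the 18988 rows of the expression table. Per the labels, the 3 controls (replicates 1 to 3) were Ras;APC FF and the 3 mice set against them (replicates 4 to 6, PGC mice) were PGC;Ras;APC FF, all on C57BL/6. Ras;APC FF is thus common to both groups, and PGC is the component that differs. What PGC, Ras and FF stand for, the cells in which the alleles act, and the age, sex, induction and time point of the mice are not stated in the labels. The series' title names the induction of gastric cancer in the corpus by successive oncogenic activation. Total RNA of corpus tissue was sequenced from 1 mouse per library, so that a larger share of dividing cells and more RNA per dividing cell cannot be told apart.

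A dividing cell makes most mitotic proteins only late in its cycle. Cyclin A and cyclin B bind the kinase Cdk1 and drive the cell into mitosis, condensins and topoisomerase compact and untangle the chromosomes, and kinetochores attach them to a spindle built by motor proteins. The spindle assembly checkpoint holds the cell until every kinetochore is attached, after which the anaphase-promoting complex, a ubiquitin ligase, marks securin and cyclin B for destruction and the cell divides. Many of these genes are transcribed together through the MuvB complex with B-Myb and Foxm1, which acts at a promoter element named the cell cycle genes homology region (CHR), often beside CCAAT boxes. In the corpus, the cells that normally divide lie mainly in the isthmus of each gland, between the pit and the neck.

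That promoter element was present in most of the genes. The RefSeq promoter table (build GRCm38.p6, the assembly of mm10) held 45 starts of 42 of the 50 genes, each with 250 bases before and 50 bases from the start on. Sequences were searched on both strands for the CHR, written TTTGAA (read as TTCAAA on the opposite strand) or as TTCGAA, and for the CCAAT box (read as ATTGG on the opposite strand), with overlapping matches allowed. A CHR match was found in 37 of the 45 promoters (82.2%), against 19.2% of all 32851 promoters of that length. The share was 52.9% of 70 promoters of other mitotic genes and 16.1% of 31 promoters of DNA replication (S-phase) genes. CCAAT matches were in 77.8% of the 45 promoters and in 37.4% of all promoters, and both elements were in 71.1% and 7.52%. CHR matches of the mitosis genes gathered at the start of transcription: 33.3% of their promoters had a match beginning 0 to 24 bases after the start, where 1.43% of all promoters had one. Counted in the 250 bases before the start alone, the CHR share was 42.2%, against 17.1% of all promoters. A match is a run of letters and not a measured binding site. The windows shown run from 120 bases before to 30 bases after the start, 5′ to 3′ on the gene's strand, with CHR and CCAAT matches in capitals. They show the genes that passed the test without replicate 6 and have an entry in the table, and Pttg1, the gene of smallest difference.
Cdk1: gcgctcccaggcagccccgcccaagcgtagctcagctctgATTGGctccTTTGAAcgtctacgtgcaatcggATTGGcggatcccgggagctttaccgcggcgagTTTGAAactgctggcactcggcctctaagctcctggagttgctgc
Ube2c: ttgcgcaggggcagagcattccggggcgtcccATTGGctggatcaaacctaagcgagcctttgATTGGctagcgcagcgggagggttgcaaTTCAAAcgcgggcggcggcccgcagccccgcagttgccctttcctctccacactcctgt
Cdca8: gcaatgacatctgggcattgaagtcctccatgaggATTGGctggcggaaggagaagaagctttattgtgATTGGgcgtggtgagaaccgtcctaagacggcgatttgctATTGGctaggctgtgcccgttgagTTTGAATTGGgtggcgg
Bub3: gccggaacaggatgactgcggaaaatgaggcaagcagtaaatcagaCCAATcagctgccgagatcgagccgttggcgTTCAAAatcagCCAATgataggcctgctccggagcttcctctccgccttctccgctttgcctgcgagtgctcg
Spc25: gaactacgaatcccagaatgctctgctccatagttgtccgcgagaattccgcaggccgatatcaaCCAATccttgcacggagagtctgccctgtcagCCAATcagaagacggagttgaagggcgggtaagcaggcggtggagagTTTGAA
Birc5: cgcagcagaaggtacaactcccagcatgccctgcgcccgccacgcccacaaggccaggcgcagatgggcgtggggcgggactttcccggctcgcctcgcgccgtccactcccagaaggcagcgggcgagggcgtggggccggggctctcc
Mad2l1: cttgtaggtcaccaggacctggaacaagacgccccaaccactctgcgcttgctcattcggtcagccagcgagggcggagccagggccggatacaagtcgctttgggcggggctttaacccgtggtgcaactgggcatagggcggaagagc
Pttg1: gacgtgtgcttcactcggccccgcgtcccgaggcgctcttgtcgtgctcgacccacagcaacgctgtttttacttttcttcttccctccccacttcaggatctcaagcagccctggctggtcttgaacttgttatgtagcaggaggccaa
These windows are chr10:69352883-69353032 (minus strand) for Cdk1, chr2:164769809-164769958 (plus strand) for Ube2c, chr4:124936888-124937037 (minus strand) for Cdca8, chr7:131560250-131560399 (plus strand) for the upstream of the 2 Bub3 starts and chr2:69206184-69206333 (minus strand) for Spc25. Those of Birc5, Mad2l1 and Pttg1 are chr11:117849117-117849266 (plus strand), chr6:66535101-66535250 (plus strand) and chr11:43425952-43426101 (minus strand). The window of Cdk1 held 2 CHR matches and 2 CCAAT matches, and that of Cdca8 held 1 and 4, with its last CCAAT match overlapping the CHR by 1 base. Birc5, Mad2l1 and Pttg1 had no match to either element in the sequence searched. For Pttg1 and Cdca8 all of that sequence lay within the gene as annotated by GENCODE. It held no base upstream of the annotated gene, so the absence at Pttg1 does not describe the promoter at that end. For Mad2l1 all of the sequence searched lay upstream of the annotated gene, which starts at base 66535390. It did not reach that annotated start, so the absence at Mad2l1 does not describe the bases around it. Bases 6 to 35 after the start lay in a GENCODE transcript of the gene for 33 of the 45 promoters. Among tested genes with a promoter entry, the median log2 difference was 0.63 in 33 with a CHR match and 0.71 in 8 without, with ranges of 0.24 to 1.05 and 0.07 to 1.21. The value of 0.07 was that of Pttg1.

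**Figure D1:**
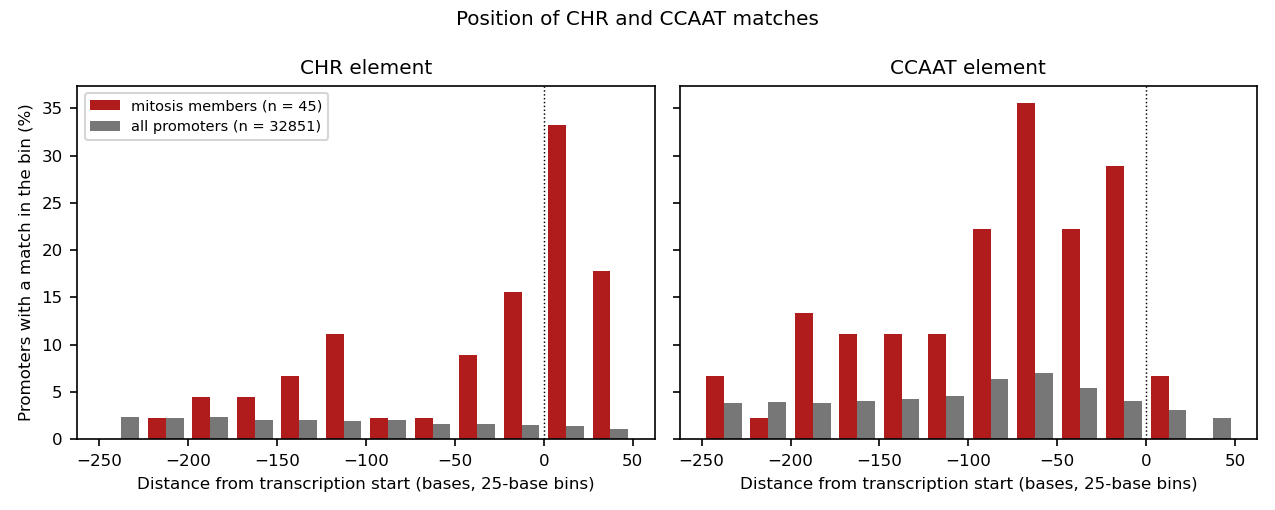
Share of promoters (percent, y axis) with a CHR match (left) or a CCAAT match (right) in each bin of 25 bases, by distance from the transcription start (x axis, bases), for 45 promoters of mitosis genes (red) and all 32851 promoters (grey). CHR matches of the mitosis genes peak at 33.3% in the bin just after the start, where all promoters have 1.43%.

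Several properties of the libraries touch the results. Summed FPKM (the deposited unit, in which fragments are divided by gene length and by the library's total) lay between 664821 and 804774, 11465 to 12407 genes reached 1 FPKM per library, and absolute depth is unknown. Pgc, Clps and Pla2g1b, abundant digestive genes, took 34.9% to 48.1% of summed FPKM in the controls. They took 32.7% in replicate 4, 31.7% in replicate 5 and only 6.36% in replicate 6. The median log2 difference of all 11857 tested genes was 0.26. In control replicate 3 Xist was at 0 and the Y-linked Eif2s3y at 13.15 FPKM, while in the other libraries Xist was at 3.58 to 6.19 and Eif2s3y at 0, so that 1 control reads as male and the other 5 mice as female. Replicates 3 and 6, the libraries that stand apart in these ways, were also the extremes of the mitosis genes.

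Mitosis genes were higher in PGC corpus by a ratio of about 2, none of them past the threshold when all 6 libraries were tested. The ratio of mean FPKM, PGC over control, had a median of 1.93 over the 50 genes, from 1.05 for Pttg1 to 2.60 for Birc5. Levels were modest: control means ran from 0.557 FPKM (Cdc25c) to 34.7 FPKM (Pttg1) with a median of 2.74, and PGC means from 0.903 (Cenpf) to 40.4 (Ube2c) with a median of 5.50. Against the control mean of each gene, the median ratio was 1.44 in replicate 4, 1.79 in replicate 5 and 2.60 in replicate 6. Replicate 6 was the highest library for 48 of the 50 genes (46 of the 48 tested, against 68.4% of all tested genes), and control replicate 3 the lowest for 46 (44 of 48, against 26.6%).

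**Figure D2:**
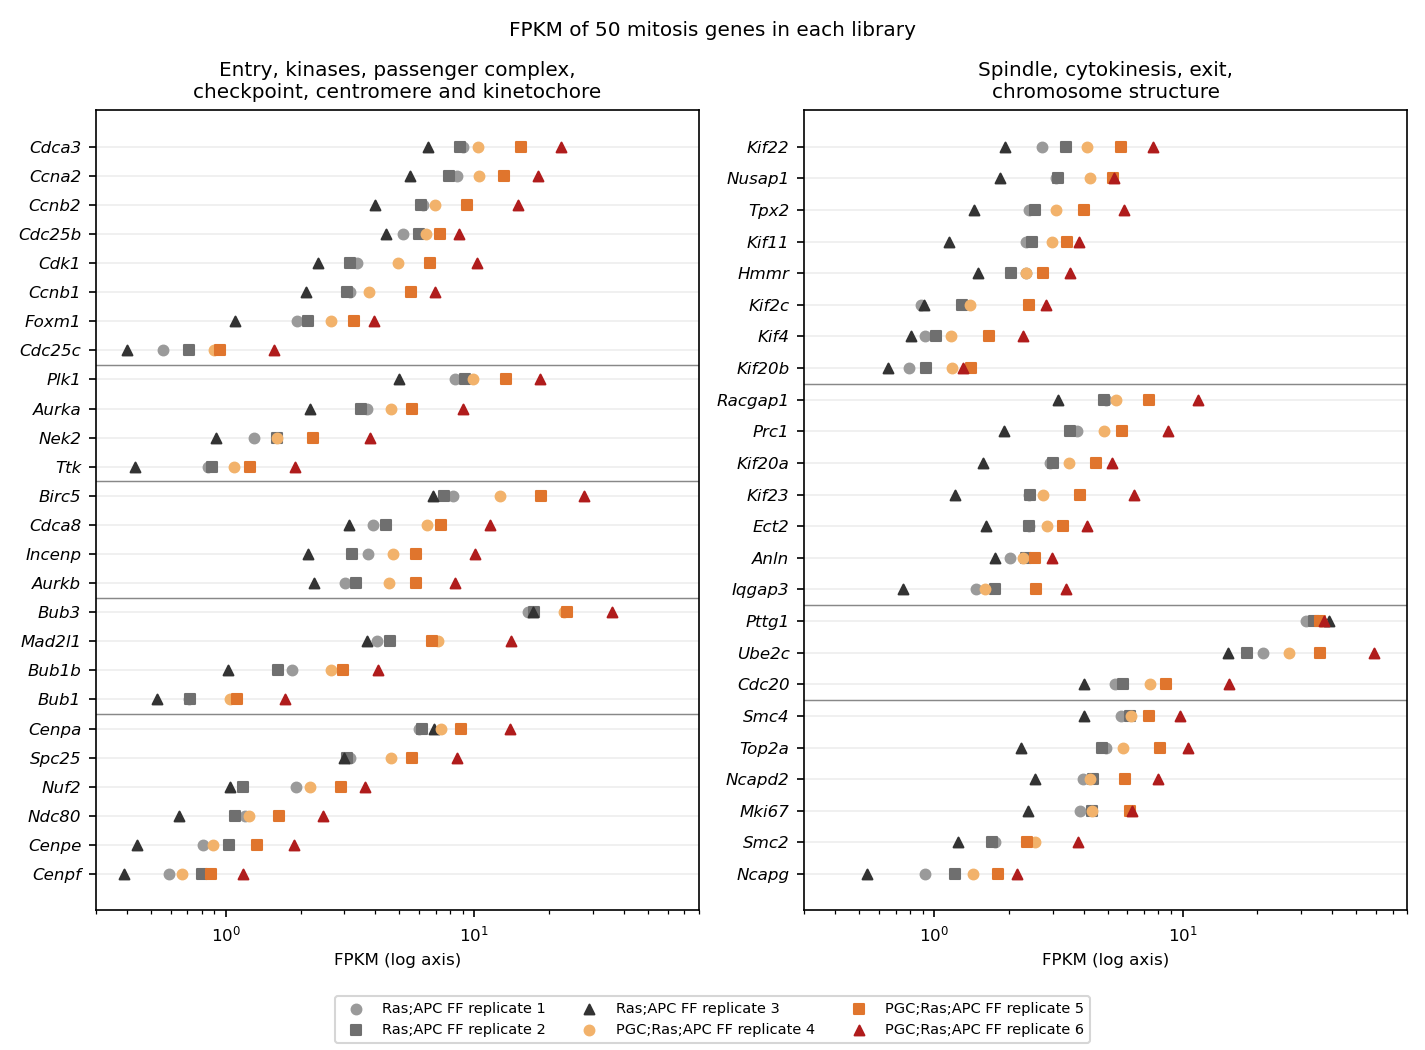
FPKM (x axis, log scale) of the 50 mitosis genes (rows, grouped by role between grey lines) in each library, with controls in grey and PGC libraries in orange to red. Replicate 6 (red triangles) is the highest library for 48 genes and control replicate 3 (black triangles) the lowest for 46.

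The test used log2(FPKM + 1), a scale that understates the difference of low genes, and took genes with at least 1 FPKM in at least 3 libraries, which kept 48 of the 50 (Cdc25c and Cenpf were left out). With limma and Benjamini-Hochberg adjustment over all 11857 genes at a threshold of 0.05, 0 of the 48 passed in either direction, beside 0.11% of all tested genes on the higher side and 0.0422% on the lower. At an unadjusted limma p under 0.05, 44 of 48 were higher and 0 lower, beside 31.8% and 3.63% of all tested genes. All 48 had a positive log2 difference, with a median of 0.68, as had 80.6% of all tested genes, and 46 of 48 lay above the median of all genes. The PGC libraries all exceeded all controls in 40 of 48 and all lay under them in 0, against 42.7% and 5.47% of all tested genes. Ttk, Bub1 and Kif20b were below 1 FPKM in every control and passed the filter only through the PGC libraries, which forces this order. Their positive differences were forced in the same way, and they are also among the 44 above. Apart from these genes the order held in 37 of 45. Where it failed, replicate 4 lay within the range of the controls (8 of the 48 genes), and for Pttg1 replicates 5 and 6 did too.

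**Figure D3:**
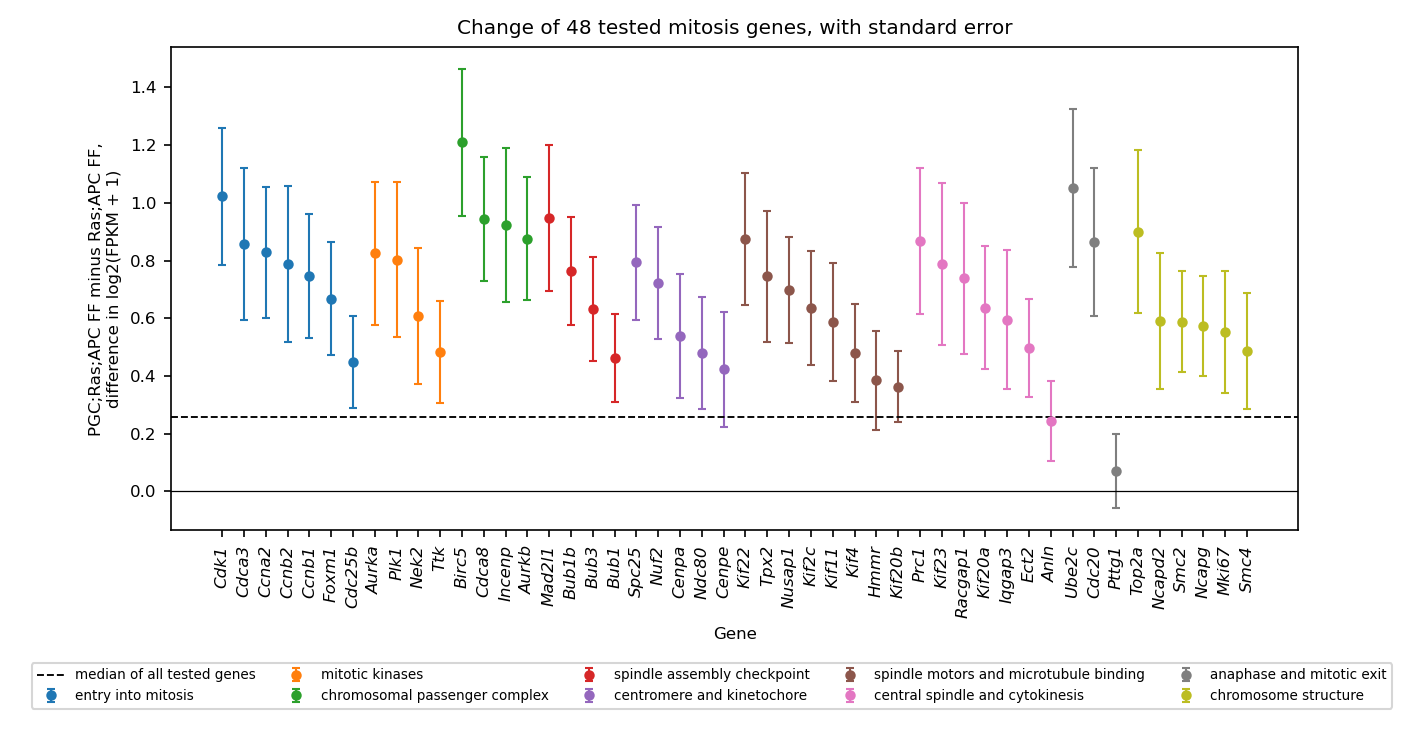
Difference in log2(FPKM + 1), PGC minus control (y axis), with standard error (bars) for the 48 tested mitosis genes (x axis), coloured by role. The dashed line is the median of all tested genes, 0.26, and 46 of 48 genes lie above it.

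Which libraries were included decided the calls. Without replicate 6, 8 of 44 tested genes rose (limma adjusted p of 0.0337 to 0.0456) and 0 fell, beside 7.17% of 11600 tested genes that rose and 0.914% that fell in that fit. With the filter taken over all 6 libraries, the count was 8 of 48, beside 8.11%. The 8 were Birc5, Mad2l1, Cdca8, Spc25, Cdk1, Bub3, Ube2c and Aurkb, and the median over the 44 genes was 0.54, against 0.17 for all genes. Without replicate 1, 2, 3, 4 or 5 alone, 0 of the mitosis genes passed, beside 0%, 0%, 0%, 0.0172% and 3.54% of all tested genes that rose. Their median log2 difference was then 0.57 to 0.86. The lowest of these medians came without control replicate 3, which left only mice that read as female. With libraries weighted by their scatter in limma, a fit that gave replicate 6 a weight of 0.133 and replicate 4 one of 3.55, 21 of 48 rose, but 29.7% of all tested genes rose too. The median was then 0.38.

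Genes that drive entry into mitosis were higher in every PGC library than in any control in 7 of 7 tested, beside 42.7% of all tested genes. After median-of-ratios scaling this held in 3 of 7, beside 17.6%. Cdk1, the kinase that cyclins A and B activate (chromosome 10, 69335146 to 69352938, minus strand), was at 3.38, 3.16 and 2.35 FPKM in control replicates 1 to 3 and at 4.94, 6.66 and 10.23 in PGC replicates 4 to 6. Its log2 difference was 1.02 ± 0.24 (SE, limma adjusted p = 0.085), and 0.78 ± 0.16 without replicate 6 (adjusted p = 0.0399). Ccna2, which encodes cyclin A, was at 8.52, 7.91 and 5.50 FPKM in control mice, against 10.42, 13.15 and 18.13 in mice with PGC. The groups did not overlap for either gene, and replicate 6 stood at 3.45 times the control mean of Cdk1. Ccnb2, a B-type cyclin, was at 6.23, 6.10 and 3.98 FPKM against 6.94, 9.37 and 14.98, with the lowest PGC library just above the highest control. Cdca3, which promotes loss of the protein of the Cdk1-inhibiting kinase Wee1, was at 9.01, 8.73 and 6.5 FPKM against 10.31, 15.43 and 22.42. Wee1 RNA, one of 2 tested genes with a negative difference among the other mitotic genes, was at 8.54, 10.74 and 7.48 FPKM in control mice, against 8.07, 7.17 and 5.33 in mice with PGC (log2 difference -0.34, limma adjusted p = 0.213). Wee1 protein was not measured, and a link between the 2 genes was not tested. The members of this group spread from 0.45 (Cdc25b, an activating phosphatase of Cdk1) to 1.02 on the log2 scale, with Foxm1, the transcription factor of the program, at 0.67 and Ccnb1 at 0.75.

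Mitotic kinases had a median log2 difference of 0.71 over 4 genes. Of the 3 with at least 1 control at 1 FPKM, 2 had groups that did not overlap (42.7% of all tested genes). Plk1, which acts at centrosomes, kinetochores and the midzone, was at 8.39, 9.15 and 4.98 FPKM in control mice, against 9.89, 13.38 and 18.35 in mice with PGC. Aurka, the kinase of spindle poles, was at 3.70, 3.50 and 2.19 FPKM against 4.62, 5.64 and 9.04 (log2 difference 0.82 ± 0.25, limma adjusted p = 0.0909). For both kinases control replicate 3 was the low library, well under the other controls. Nek2, which separates centrosomes, overlapped, since control replicate 2 and PGC replicate 4 both had 1.61 FPKM.

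The chromosomal passenger complex, which corrects faulty attachments and then guides cytokinesis, had the largest median of the groups, 0.93 over its 4 genes. Birc5 (survivin, chromosome 11, 117849251 to 117855743, plus strand) was at 8.22, 7.57 and 6.84 FPKM in control mice, against 12.64, 18.54 and 27.74 in mice with PGC. It had the largest log2 difference of the 48 genes, 1.21 ± 0.25 (SE, limma adjusted p = 0.085), and 0.94 ± 0.16 without replicate 6 (adjusted p = 0.0337). All 3 of its PGC values lay above all controls. Cdca8 (borealin, chromosome 4, 124918465 to 124939311, minus strand) was at 3.92, 4.40 and 3.12 FPKM against 6.43, 7.37 and 11.53, with 0.72 ± 0.14 without replicate 6 (adjusted p = 0.0351). Incenp, the scaffold, was at 3.73, 3.22 and 2.15 FPKM against 4.70, 5.81 and 10.07. Aurkb, its kinase (chromosome 11, 69045647 to 69051664, plus strand), was at 3.02, 3.35 and 2.27 against 4.55, 5.83 and 8.33, and is named here because it was among the 8 genes above. All 4 subunits had groups that did not overlap, beside 42.7% of all tested genes, and also after median-of-ratios scaling, beside 17.6%.

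Spindle assembly checkpoint genes had a median log2 difference of 0.70 over 4 genes. Apart from Bub1, whose order the filter forced, the groups did not overlap in 3 of 3, beside 42.7% of all tested genes. Mad2l1, which encodes the inhibitor Mad2 of Cdc20 (chromosome 6, 66535390 to 66547220, plus strand), was at 4.07, 4.56 and 3.70 FPKM in control mice, against 7.13, 6.77 and 14.05 in mice with PGC. Replicates 4 and 5 were close to each other and replicate 6 was far above them. Its log2 difference of 0.95 ± 0.25 (limma adjusted p = 0.0853) was 0.64 ± 0.11 without replicate 6 (adjusted p = 0.0341). Bub3, a partner of Bub1 and BubR1 that cells also express outside mitosis (chromosome 7, 131560222 to 131571895, plus strand), had tight controls at 16.48, 17.45 and 17.22 FPKM, against 23.06, 23.71 and 35.79. Bub1b, which encodes BubR1, was at 1.84, 1.63 and 1.02 FPKM against 2.66, 2.96 and 4.09.

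At the centromere and kinetochore the median was 0.54 over 5 tested genes, the smallest of the groups on this scale. That rank depended on the setting. With 0.1 in place of 1 added to FPKM the median was 0.79, against 0.77 for chromosome structure genes. Without replicate 3 it was 0.59, against 0.42. Spc25, of the Ndc80 complex that grips microtubules (chromosome 2, 69193895 to 69206194, minus strand), had nearly equal controls at 3.16, 3.08 and 3.00 FPKM and PGC values of 4.62, 5.60 and 8.53. It was 1 of the genes that rose without replicate 6 (0.58 ± 0.11, limma adjusted p = 0.036). Nuf2 of the same complex was at 1.91, 1.17 and 1.04 FPKM against 2.19, 2.92 and 3.62. Cenpa, the centromeric histone, was at 6.02, 6.19 and 6.90 FPKM against 7.38, 8.81 and 13.87, and there control replicate 3 was the highest control. Cenpe, a kinetochore motor, overlapped between the groups at 0.81, 1.03 and 0.44 FPKM against 0.89, 1.34 and 1.88.

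Spindle motors and microtubule-binding genes had a median of 0.61 over 8 genes. Apart from Kif20b, whose order the filter forced, 6 of 7 did not overlap, beside 42.7% of all tested genes. Kif22, a motor that pushes chromosomes from the poles, was at 2.71, 3.4 and 1.93 FPKM in control mice, against 4.12, 5.68 and 7.61 in mice with PGC (log2 difference 0.87 ± 0.23, limma adjusted p = 0.085). Tpx2, an activator of Aurora A, was at 2.41, 2.56 and 1.45 FPKM against 3.10, 4.01 and 5.83. Nusap1, which bundles spindle microtubules, was at 3.10, 3.16 and 1.84 against 4.26, 5.26 and 5.28, with replicates 5 and 6 nearly equal. Of the rest, Hmmr and Kif20b had the smallest differences, 0.38 and 0.36.

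Central spindle and cytokinesis genes had a median of 0.64 over 7 genes. Prc1, which cross-links the midzone, was at 3.75, 3.54 and 1.92 FPKM in control mice, against 4.84, 5.70 and 8.75 in mice with PGC. Racgap1 of the centralspindlin complex was at 4.91, 4.81 and 3.16 FPKM against 5.39, 7.30 and 11.49. Kif20a, the motor that carries the passenger complex to the midzone, was at 2.93, 3.02 and 1.57 FPKM against 3.49, 4.49 and 5.19. In Racgap1 and Kif20a replicate 4 was only slightly above control replicates 1 and 2. Anln (anillin, the scaffold of the contractile ring) had the second smallest difference of all, 0.24 ± 0.14 (limma adjusted p = 0.227), at 2.03, 2.34 and 1.76 FPKM against 2.29, 2.55 and 2.98.

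Genes of anaphase and mitotic exit held both the most abundant genes and the sharpest contrast. Ube2c, the ubiquitin-conjugating enzyme of the anaphase-promoting complex (chromosome 2, 164769898 to 164778822, plus strand), was at 21.02, 18.18 and 15.27 FPKM in control mice, against 26.71, 35.89 and 58.72 in mice with PGC. Its log2 difference was 1.05 ± 0.27 (SE, limma adjusted p = 0.085), and 0.75 ± 0.17 without replicate 6 (adjusted p = 0.044). Cdc20, the activator of that complex, was at 5.37, 5.78 and 4.03 FPKM against 7.41, 8.57 and 15.31. Both genes had PGC values above all controls. Pttg1, which encodes securin, the inhibitor of separase (chromosome 11, 43420250 to 43426251, minus strand), was at 31.51, 33.76 and 38.87 FPKM in control mice, against 36.09, 35.81 and 37.18 in mice with PGC. Its 3 PGC libraries lay within the range of the controls, and it was the 1 gene of the 50 for which control replicate 3 was the highest library. The log2 difference of 0.07 ± 0.13 (limma adjusted p = 0.694) turned to -0.24 after median-of-ratios scaling.

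Chromosome structure genes had a median of 0.58 over 6 genes. Top2a, the topoisomerase that untangles sister chromatids, was at 4.91, 4.75 and 2.23 FPKM in control mice, against 5.78, 8.15 and 10.48 in mice with PGC (log2 difference 0.90 ± 0.28, limma adjusted p = 0.0949). Its controls were scattered, with replicate 3 below the level of the others by more than 2 FPKM. Smc4, a condensin core subunit, was at 5.63, 6.12 and 4.00 FPKM against 6.21, 7.31 and 9.80. Ncapd2, a condensin I subunit, overlapped at 3.96, 4.37 and 2.54 against 4.23, 5.89 and 7.93. Mki67, which coats mitotic chromosomes and is the common marker of dividing cells, was outside the naming rule and is added for that use. It was at 3.88, 4.32 and 2.38 FPKM against 4.31, 6.17 and 6.27 (log2 difference 0.55 ± 0.21, limma adjusted p = 0.118), and PGC replicate 4 lay just under control replicate 2.

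The level of the whole list in each library is the median over its 48 tested genes of log2(FPKM + 1) above the control mean. It was 0.12, 0.15 and -0.26 in the controls and 0.38, 0.68 and 1.02 in replicates 4, 5 and 6, while all tested genes were at 0.18, 0.16 and 0.45 in the latter. The low level of control replicate 3 was not a property of all genes, since its median against replicates 1 and 2 was -0.39 for the mitosis genes and 0.03 for 11484 genes with a known length. In that library long genes read lower than short ones, with a median of 0.15 in the shortest of 4 equal length classes and -0.05 in the longest. The mitosis genes were low in each class, from -0.37 to -0.49. The trait was shared by related lists. Replicate 3 was the lowest library for 37 of 55 other mitotic genes and 21 of 30 DNA replication genes, against 26.6% of all tested genes. For the anaphase-promoting complex it was 5 of 14. The part of library quality in this was not tested.

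Other genes of the mitotic pathway were taken from lists of their known roles. Of 75 other mitotic genes, 74 were found and 55 tested, and 0 passed with all 6 libraries (39 were higher and 0 lower at an unadjusted limma p under 0.05, beside 31.8% and 3.63% of all tested genes). Their median log2 difference was 0.57, 53 of 55 were positive (80.6% of all tested genes), and 38 did not overlap (42.7%). Genes that passed the filter only through the PGC libraries were not set apart in these counts. Without replicate 6, 10 of 46 rose by limma, beside 7.17% of all tested genes. They were Cks1b and Cks2 (subunits of the Cdk1 complex), Melk, Pbk, Cenpm, Cenpt, Pmf1, Mis18a, Mad1l1 and Kifc1. Pbk, a mitotic kinase, was at 3.09, 2.63 and 2.41 FPKM in control mice, against 4.84, 6.28 and 10.13 in mice with PGC. The 3 most abundant genes of the list did not pass the test. Rad21, a cohesin subunit also needed in interphase, was at 33.7 ± 3.29 and 35.8 ± 2.85 FPKM (SD, n = 3), Fzr1 at 18.5 ± 0.66 and 25.2 ± 2.12, and Ncaph2 at 17.9 ± 2.53 and 21.4 ± 3.92. The subunits of the anaphase-promoting complex, with its enzyme Ube2s, had a median of 0.38 over 14 genes, close to the 0.26 of all genes, with 0 past the threshold. Anapc13 was at 99.9 ± 12.4 and 98.1 ± 14.0 FPKM and Anapc5 at 39.2 ± 0.57 and 46.4 ± 6.63, while Ube2s was at 53.8 ± 4.37 and 94.1 ± 31.6.

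DNA replication genes, the nearest list in the cell cycle, were level between PGC replicates 4 and 5. Their median log2 difference was 0.84 over 30 tested genes, and 0 passed with all 6 libraries by limma. At an unadjusted limma p under 0.05, 28 were higher, beside 31.8% of all tested genes. Genes that passed the filter only through the PGC libraries, which forces a positive difference, were not set apart in this median or count. Without replicate 6, 19 of 27 DNA replication genes rose, beside 7.17% of all tested genes. The level of the DNA replication list was 0.64 in both replicates 4 and 5 and 1.20 in replicate 6. Replicate 5 exceeded replicate 4 in 12 of the 30 genes, against 45 of the 48 mitosis genes and 45.3% of all tested genes. The other mitotic genes lay between, with 38 of 55 and levels of 0.33 and 0.43 in replicates 4 and 5. In the anaphase-promoting complex it was 8 of 14. Mcm7 of the replicative helicase was at 10.10, 9.37 and 8.64 FPKM in control mice, against 17.67, 16.56 and 26.22 in mice with PGC, Mcm6 at 9.86, 9.28 and 4.05 against 17.01, 14.41 and 20.00, and Pcna at 40.36, 38.43 and 40.08 against 56.67, 55.12 and 76.34. The difference between the lists was not tested, since it rests on 1 mouse for each of the libraries compared.

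**Figure D4:**
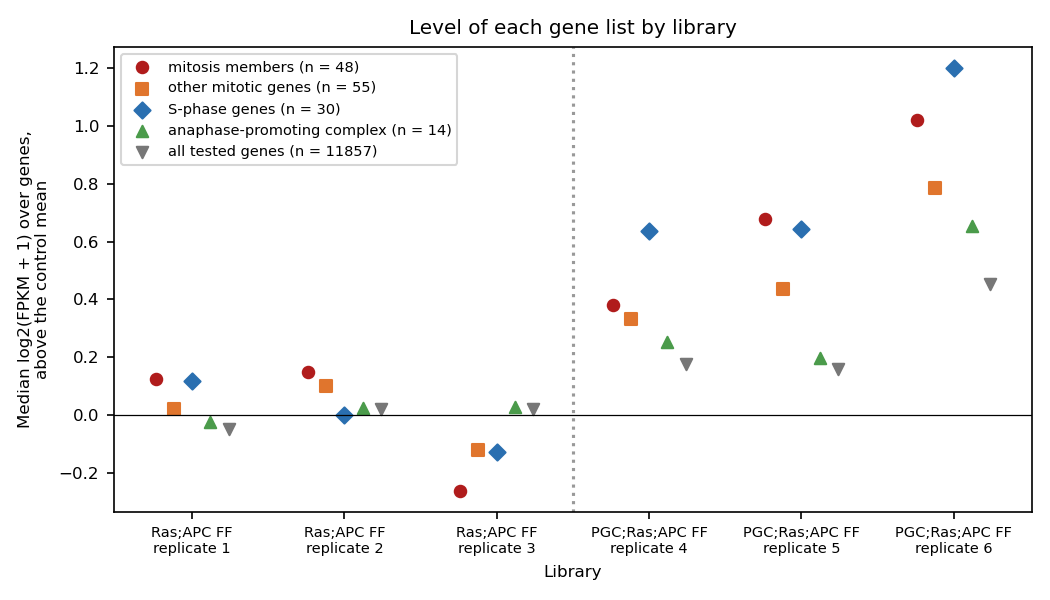
Median over genes of log2(FPKM + 1) above the control mean (y axis) for 5 gene lists in each library (x axis), with the number of tested genes in the legend. Mitosis genes (red circles) lie at 0.38, 0.68 and 1.02 in replicates 4, 5 and 6, while S-phase genes (blue diamonds) are level between replicates 4 and 5.

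Markers of cell types moved beside the mitosis genes. The 5 general epithelial markers (Epcam, Cdh1, Krt8, Krt18 and Krt19) summed to 2425 to 2821 FPKM in controls and to 4128, 4634 and 6254 in replicates 4, 5 and 6. All 5 were higher in every PGC library, with log2 differences of 0.62 to 1.32. When each library was scaled to these markers, the median log2 difference of the mitosis genes was 0.02, 27 of 48 were positive, 0 rose and 2 fell, beside 1.46% and 59.2% of all tested genes, whose median was -0.50. Smooth muscle markers (6 genes) summed to 1897 to 3438 FPKM in controls and 860.3 to 1269 in PGC libraries, with control replicate 3 the highest. The summed level of 10 leukocyte markers was 14.43 to 19.19 FPKM in controls and 34.45, 19.03 and 53.24 in replicates 4, 5 and 6, with Ms4a1 at 0 in control replicates 1 and 2. Parietal cell markers (5 genes) summed to 7794 to 9685 FPKM in controls and to 7851, 8667 and 1724 in replicates 4, 5 and 6, and chief cell markers (5 genes) to 155800 to 206600 in controls and 106100, 94560 and 19900. The gene of intrinsic factor (Gif, also named Cblif) was in both of these lists, so the sums are not independent. The chief cell sum was mostly Pgc, at 140325 to 194208 FPKM in controls and 87455, 78757 and 16059 in replicates 4, 5 and 6. Without replicate 6, 4 of the 5 chief cell markers had positive log2 differences, and the median was 0.56. Of the 5 parietal cell markers 1 was positive in that fit, and the median was -0.33. Surface pit cell markers (4 genes) summed to 72980 to 143600 FPKM over the controls, a range that held the 103600 to 107900 of the PGC libraries. Endothelial markers (4 genes) lay between 23.11 and 27.62 FPKM in all libraries. Fibroblast markers (5 genes) summed to 214.5 to 216.8 FPKM in controls and to 293.5, 207.7 and 336.6 in replicates 4, 5 and 6. Squamous forestomach markers (4 genes) summed to 0.9, 0.3 and 0.25 FPKM in controls and to 2.66, 3.2 and 4.74 in replicates 4, 5 and 6. Nearly all of this PGC sum was Krt13, at 2.34, 3.01 and 4.63 FPKM in those replicates. Krt5, Krt14 and Trp63 were each at 0.22 FPKM or less in every library and each at 0 in 1 of the 6. The order 4 below 5 below 6 was that of 44 of the 48 tested mitosis genes, and of 32.1% of all tested genes. What part these cell types have in the level of the mitosis genes was not tested.

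The difference depended on the scaling. With scaling to the epithelial markers, 21 of the 48 genes had a negative log2 difference. Median-of-ratios scaling, which brought the median of all genes to -0.0071, left a median of 0.45 over the 48 mitosis genes, of which 47 were positive. By limma 0 passed in either direction, beside 0.0759% and 0.0843% of all tested genes, and 25 were higher at an unadjusted p under 0.05, beside 12.8%. The groups then did not overlap in 24 of 48, against 17.6% of all tested genes. Quantile normalization gave a median of 0.45, with 22 of 48 not overlapping beside 17%. Dividing by a total without the 50 most abundant genes gave 0.41, with 20 of 48 beside 14%. These counts include genes that passed the filter only through the PGC libraries. Ttk and Bub1 were among the 24 and the 20, and Bub1 and Kif20b among the 22.

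**Figure D5:**
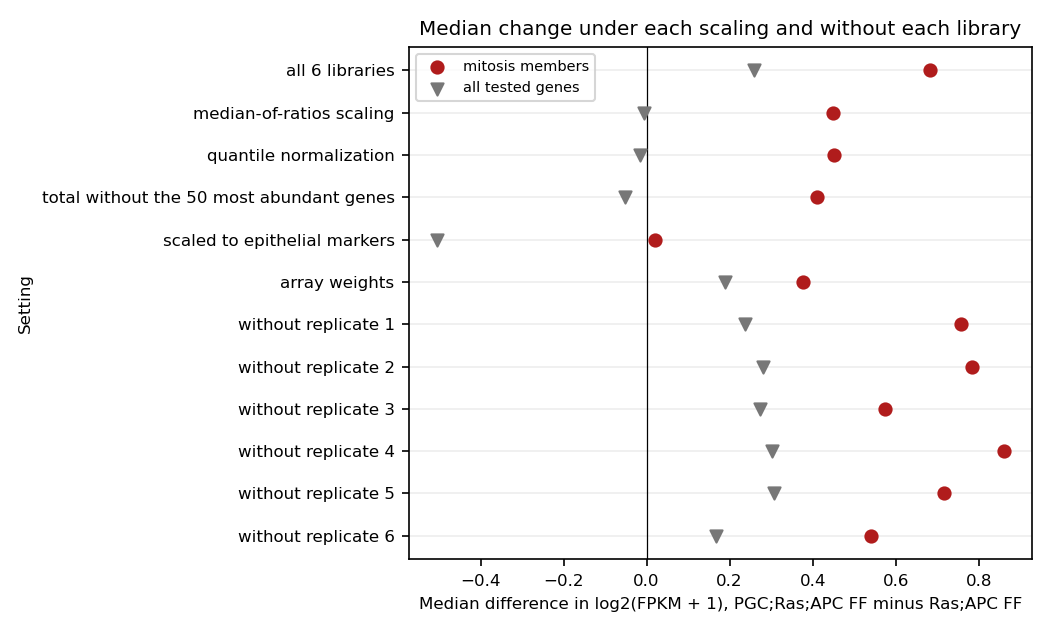
Median difference in log2(FPKM + 1), PGC minus control (x axis), of the mitosis genes (red circles) and of all tested genes (grey triangles) under each scaling and without each library (y axis). The mitosis genes lie above all genes in every setting drawn and reach 0.02 when libraries are scaled to epithelial markers.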

How the data were processed

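RNA of stomach corpus was measured in 6 libraries, each from 1 mouse. The authors deposited FPKM values per gene symbol, rounded to 2 decimals, and STAR, featureCounts and mm10 are named in the submitters' processing notes. Software versions, annotation, strandedness and how FPKM were computed were not given in the sources used here. FPKM are not counts, so no count model was used. Genes with at least 1 FPKM in at least 3 of 6 libraries (11857) were fitted as log2(FPKM + 1) with genotype as the 1 term in limma 3.58.1 (R 4.3.3, eBayes with trend, two-sided, Benjamini-Hochberg, threshold 0.05, total degrees of freedom 7.72). The fit was also run on simulated data in which all libraries had the same scatter. The real libraries did not, with weights from 0.133 (replicate 6) to 3.55 (replicate 4), so that run does not show how the fit performs here. An exact test of 3 against 3 cannot give a two-sided p under 0.1. Gene positions came from GENCODE M21 (GRCm38) by symbol (18280 of 18988 rows matched), promoters from RefSeq. The mitosis genes and all lists were chosen with earlier results of these data known. Per-library values are given for up to 3 most abundant genes per role, for 5 of smallest adjusted p without replicate 6, and for the largest and smallest difference. Cdc25b, Foxm1, Ccnb1, Cenpe, Hmmr, Kif20b, Anln, Aurkb, Mki67, Wee1, and the genes of other lists that rose without replicate 6, were added after their values were seen. Alternatives were the pseudocount, the filter, scaling, the variance model, library weights and leaving out each library.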

Additional observations from a re-analysis of the deposited data

How the results depend on the processing

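No paired analysis was possible because the groups share no replicate number. Absolute depth is unknown, so no counting error is given for low FPKM. Without replicate 6, the mitosis genes called higher numbered 8, other mitotic genes 10 and S-phase genes 19. With the filter of all 6 libraries kept they numbered 8, 11 and 20, and with library weights, whose estimate stopped before convergence, 21, 29 and 27. Over the fits that left out 1 library, these counts ran from 0 to 8, 0 to 11 and 0 to 20. Without replicate 5 they were 0, 2 and 12. All genes called higher ran from 0 to 962 and lower from 0 to 114 over these fits, against 13 and 5. Without replicate 1, 2 or 3 both were 0, without replicate 4 they were 2 and 3, without replicate 5 they were 413 and 45, and without replicate 6 they were 832 and 106. Higher calls numbered 29 with a pseudocount of 0.1, 3 without a filter, 173 with scaling to epithelial markers and 3523 with library weights. Lower calls numbered 10 with median-of-ratios and 10 with reduced-total scaling (leaving out the 50 most abundant genes), 13 with quantile normalization, 7020 with scaling to epithelial markers and 369 with library weights. Higher calls under the first 3 of these numbered 9, 12 and 10. The median of the mitosis genes was 0.0206 with scaling to epithelial markers and 0.38 with library weights, while 24, 22, 20 and 1 of them did not overlap under median-of-ratios, quantile, reduced-total and epithelial scaling, against 40. Ttk, Bub1 and Kif20b, whose order the filter forced, were not removed for these counts. Genes of the other lists that passed the filter only through the PGC libraries were not removed either. Scaling to epithelial markers also gave lower calls for 2 mitosis genes, 13 other mitotic genes and 2 S-phase genes, and 1 higher S-phase call. The CHR share was 42.2% in the 250 bases before the start.

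Some genes changed sign. Scaled to epithelial markers, 21 of the 48 mitosis genes were negative, and 2 of these, Pttg1 and Anln, were called lower. Log2 differences were -0.39 for Anln (limma adjusted p = 0.0387), -0.33 for Cdc25b, -0.26 for Hmmr, -0.18 for Mki67, -0.17 for Ect2, -0.0848 for Kif20b, -0.06 for Kif11, -0.0412 for Ndc80, -0.0362 for Cenpe, -0.0327 for Smc2, -0.0325 for Kif4, -0.0159 for Ccnb2, -0.0238 for Plk1, -0.24 for Bub3, -0.27 for Cenpa, -0.0081 for Nusap1, -0.0559 for Kif20a, -0.0408 for Racgap1, -0.82 for Pttg1, -0.30 for Smc4, -0.16 for Ncapd2, -0.80 for Rad21, -0.45 for Fzr1, -0.63 for Ncaph2, -0.15 for Ube2s, -0.66 for Anapc5 and -0.26 for Pcna. Under median-of-ratios, quantile and reduced-total scaling they were -0.24, -0.26 and -0.29 for Pttg1, -0.22, -0.26 and -0.27 for Rad21, -0.0644, -0.0823 and -0.11 for Ncaph2, and -0.0804, -0.13 and -0.13 for Anapc5. Anln was at -0.015 under reduced-total scaling. Anapc13, at -0.03 with all 6 libraries, was at 0.0922 with library weights, and from -0.1214 (without replicate 5) to 0.0842 (without replicate 6, also with the filter kept) over the fits that left out 1 library, with 0.0639 without replicate 3. For these changes the cause was not tested. The pseudocount, either filter and the model without trend changed no direction among the named genes.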
